A study of Mus musculus with 24 samples.

Results

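The angiopoietin and Tie receptor system was followed through both tissues of the series as 5 genes: the ligands Angpt1 and Angpt2, the receptors Tek and Tie1, and the receptor phosphatase Ptprb. Members were taken by symbol, through the Ensembl gene identifier of each row, and all 5 were found among the 36109 genes of the lung table and the 36595 genes of the retina table. All 5 also passed the filter on low counts in both tissues, which left 16819 lung genes and 19173 retina genes to test.

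The series measured whole-tissue RNA from 24 neonatal C57/B6 mice, 12 lungs and 12 retinas, in 4 groups of 3 per tissue. Wild-type (WT) pups and littermates homozygous for a global Gsdmd knockout (GSDMD-KO, written KO below) came from heterozygous parents. The knockout allele is a small CRISPR/Cas9 deletion inside an exon and is present in every cell, and Gsdmd encodes gasdermin D, the pore-forming protein of pyroptosis. For the lung, pups breathed room air with 21% O2 (WT-RA, KO-RA) or hyperoxia with 85% O2 (WT-O2, KO-O2) from postnatal day 1 to 14 and lungs were taken on day 15, a model of bronchopulmonary dysplasia. For the retina, pups breathed room air throughout (WT-RA, KO-RA) or 75% O2 from postnatal day 7 to 12 followed by room air (WT-O2, KO-O2), and retinas were taken on day 18, a model of retinopathy of prematurity. The oxygen level, its timing and the age at collection therefore all differ between the tissues, and the retinas of the exposed groups had been back in room air when they were taken. Each library carries its own mouse identifier. The p-values rest on the spread between mice within groups, estimated jointly over the 4 groups of a tissue with 3 mice each.

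Tek, also called Tie2, is a receptor tyrosine kinase of endothelial cells. Angpt1, released by mural and mesenchymal cells, activates it and keeps vessels quiescent and tight, whereas Angpt2, made and stored by endothelial cells themselves, competes with Angpt1 and can block or weakly activate the receptor depending on context. Tie1 is a related receptor that binds neither ligand well by itself and modulates Tek within a complex, and Ptprb, also known as VE-PTP, is an endothelial phosphatase that removes phosphate from Tek. In lung the system belongs to the capillary bed of the alveoli. In retina it takes part in the growth and remodelling of the vascular layers after birth.

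On the mouse genome build GRCm38, Angpt1 (ENSMUSG00000022309) spans chr15:42424723-42676977 on the minus strand, Angpt2 (ENSMUSG00000031465) chr8:18690263-18741562 on the minus strand, and Ptprb (ENSMUSG00000020154) chr10:116275523-116389535 on the plus strand. Both receptor genes lie on chromosome 4, Tek (ENSMUSG00000006386) at chr4:94739289-94874976 on the plus strand and Tie1 (ENSMUSG00000033191) at chr4:118471191-118490061 on the minus strand. Counts cover the exons of the whole gene.

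The libraries were even in depth, with 28763661 to 29604254 estimated counts per lung and 24863257 to 29093035 per retina. Gsdmd was lower in every KO lung than in any WT lung, at 41.4 ± 0.885 CPM (counts scaled to one common library size; mean ± SD, n = 3) in WT-RA against 24.0 ± 1.19 in KO-RA, and 34.4 ± 2.15 in WT-O2 against 13.7 ± 2.38 in KO-O2. In retina Gsdmd was low, at 0.419 to 5.70 CPM, and the genotypes overlapped. The retina labelled WT-RA replicate 2 had 0.419 CPM, below all 6 KO retinas. A small deletion removes few of the gene's reads, so these counts check the labels only in part. Endothelial markers were present throughout: the 15 genes of an endothelium list summed to 4758.62 to 6710.17 CPM across the lungs and 252.005 to 498.781 CPM across the retinas, and no gene of the list was at 0. Lens genes summed to 15963.2 CPM in WT-RA replicate 2, 54818.5 CPM in WT-RA replicate 3 and 22155.4 CPM in KO-RA replicate 3, against 4.11639 to 268.348 CPM in the other 9 retinas, so lens RNA moved with room air. Liver genes summed to 165.467 CPM in the lung of KO-O2 replicate 1 and to at most 2.97383 CPM in the other 11 lungs. Red cell genes were lower in WT-O2 lungs (1806.14 to 2582.53 CPM summed) than in WT-RA lungs (10082 to 11490.6 CPM), whereas KO-O2 lungs (3722.66 to 18776.9 CPM) overlapped KO-RA lungs (8370.08 to 17192.5 CPM) and all lay above WT-O2. In retina they were lower in KO-O2 (224.76 to 276.149 CPM) than in WT-O2 (616.646 to 943.619 CPM), and 3 of the 4 tested were called there. Their part in the genotype comparisons was not tested. Y-linked genes were expressed in 0, 1, 2 and 3 of 3 lungs of WT-RA, WT-O2, KO-RA and KO-O2, and in 3, 1, 3 and 1 of 3 retinas in the same order, so sex moved with the groups in both tissues. Where lens RNA, sex or a single library changed a call of a member, values are given below with and without it.

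In lung, hyperoxia raised the ligand Angpt2 and lowered the receptor Tek, the phosphatase Ptprb, the ligand Angpt1 and the co-receptor Tie1, in WT and in KO mice. All 5 genes had an adjusted p under 0.1. Adjusted p-values here, other than those credited to DESeq2, come from the quasi-likelihood test of edgeR and are corrected by Benjamini and Hochberg's method over all tested genes. The study's own call rule also asks for an unadjusted p under 0.05 and a change of 2-fold or more, and 4 of 5 members met it. The study applied that rule to DESeq2 results and here it was applied to edgeR, so calls and shares are not the study's own. The background was high: 11.6% of all tested genes were called in WT and 10.6% in KO, and 49.2% in WT and 46.7% in KO passed the adjusted p alone. In both genotypes the 3 exposed mice lay outside the range of the 3 room-air mice for all 5 members, as they did for 49.8% of all tested genes in WT and 52.4% in KO. In whole tissue, fewer cells of a type and less RNA per cell cannot be told apart.

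**Figure D1:**
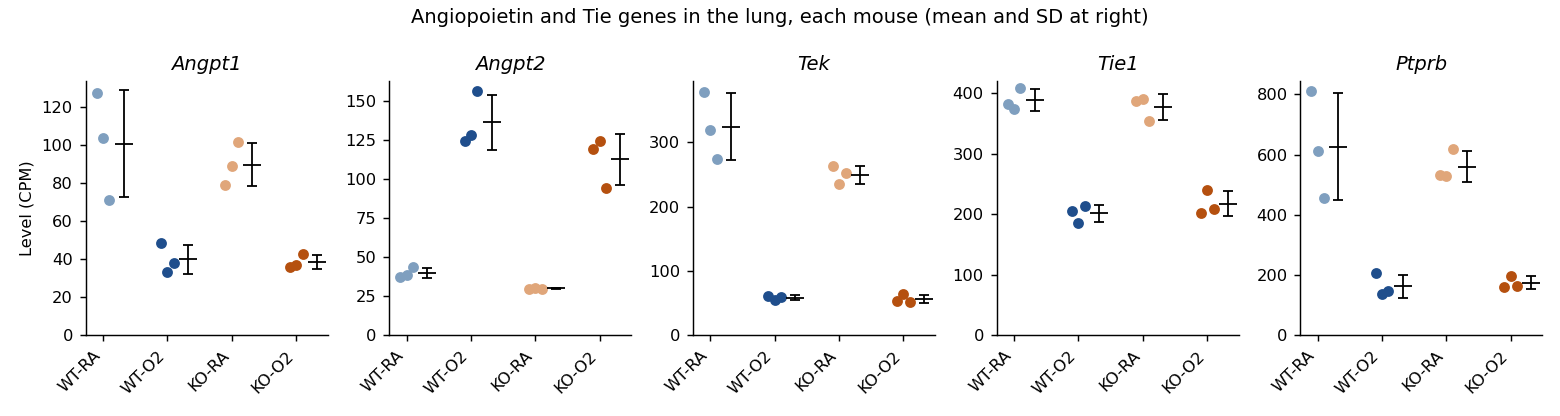
Level of each of the 5 genes in the 12 lungs, in CPM on a linear axis that starts at 0, 1 point per mouse with the group mean and SD beside it. Exposed mice of both genotypes lie above the room-air mice for Angpt2 (94.1 to 156 against 29.8 to 43.8 CPM) and below them for the other 4 genes.

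Among the ligands, Angpt1 stood at 127, 104 and 71.1 CPM in the WT-RA lungs and at 48.4, 33.4 and 38.2 CPM in the WT-O2 lungs. The lowest room-air lung was above the highest exposed one, and Angpt1 fell 2.52-fold (log2 -1.33, SE 0.196, adjusted p = 0.000219). In KO mice it stood at 78.9, 88.8 and 101 CPM in room air and at 36.1, 36.8 and 42.6 CPM in hyperoxia, a 2.33-fold fall (log2 -1.22, SE 0.196, adjusted p = 0.00045). The WT-RA lungs were the most variable of the 4 groups for this ligand, with a coefficient of variation of 27.9%.

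Angpt2 moved the other way. It stood at 37.6, 38.7 and 43.8 CPM in WT-RA lungs and at 124, 128 and 156 CPM in WT-O2 lungs, a 3.40-fold rise (SE 0.114 on the log2 scale, adjusted p = 3.93e-08). In KO-RA lungs the 3 mice were all between 29.8 and 30.4 CPM, a coefficient of variation of 1.06%, and in KO-O2 lungs they stood at 119, 124 and 94.1 CPM. The rise in KO mice was 3.74-fold (log2 1.90, SE 0.115, adjusted p = 2.7e-08), and no exposed lung overlapped a room-air lung. Of the 5 members it was the single one that rose.

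Tek had the largest change of the 5 in lung. Its levels were 379, 319 and 274 CPM in WT-RA and 62.0, 54.3 and 59.4 CPM in WT-O2, a 5.53-fold fall with an SE of 0.120 on the log2 scale. By p-value it stood at rank 19 of the 16819 genes tested in WT mice (adjusted p = 3.69e-09). In KO mice it went from 262, 235 and 252 CPM in room air to 53.0, 64.2 and 52.1 CPM in hyperoxia, a 4.42-fold fall (log2 -2.14, SE 0.119, adjusted p = 1.48e-08, rank 29). The 6 exposed lungs thus sat between 52.1 and 64.2 CPM whatever the genotype.

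Tie1 fell by less. It stood at 383, 375 and 409 CPM in WT-RA lungs and at 206, 186 and 213 CPM in WT-O2 lungs, a 1.93-fold fall (log2 -0.95, SE 0.0883, adjusted p = 1.3e-06). In KO mice it went from 388, 391 and 354 CPM to 202, 241 and 210 CPM, a 1.74-fold fall (log2 -0.80, SE 0.0881, adjusted p = 7.52e-06). Neither fall reached the 2-fold threshold of the call rule, although the groups did not overlap. The coefficient of variation of Tie1 was 4.61% in WT-RA and 5.5% in KO-RA, against 16.1% and 5.63% for Tek.

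Ptprb, the phosphatase, stood at 810.1, 613 and 457 CPM in WT-RA lungs and at 208, 136 and 147 CPM in WT-O2 lungs, a 3.83-fold fall (log2 -1.94, SE 0.205, adjusted p = 1.5e-05). In KO mice it went from 531, 529.5 and 619 CPM to 162, 199 and 165 CPM, a 3.19-fold fall (log2 -1.67, SE 0.203, adjusted p = 5e-05). The WT-RA lungs spread widely here too, with a coefficient of variation of 28.2%. The same WT-RA mouse was highest and the same one lowest for Angpt1, Tek and Ptprb, while Tie1 was highest in the mouse that was lowest for those 3 genes.

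Per kilobase of exon, a scale on which genes can be set beside each other in the lung, the room-air order in WT was Tie1 at 79.2 ± 3.65 CPM per kb, Tek at 68.8 ± 11.1, Ptprb at 47.0 ± 13.3, Angpt1 at 19.3 ± 5.39 and Angpt2 at 10.8 ± 0.900 (mean ± SD, n = 3). Neighbouring levels of Tie1 and Tek, and of Tek and Ptprb, were closer than their summed SDs. After hyperoxia the WT order was Tie1 at 41.0 ± 2.83 CPM per kb, Angpt2 at 36.9 ± 4.76, Tek at 12.4 ± 0.834, Ptprb at 12.3 ± 2.89 and Angpt1 at 7.68 ± 1.47. Here Tie1 and Angpt2, and Tek and Ptprb, were closer than their summed SDs. In KO lungs the room-air order was that of WT-RA (76.8, 53.0, 42.0, 17.2 and 8.15 CPM per kb for Tie1, Tek, Ptprb, Angpt1 and Angpt2). In KO-O2 the levels were 44.3 for Tie1, 30.5 for Angpt2, 13.2 for Ptprb, 12.0 for Tek and 7.40 for Angpt1. Ptprb (SD 1.53) and Tek (SD 1.44) were closer than their summed SDs in that group. By group means, Angpt2 thus went from the lowest of the 5 to the second position in both genotypes.

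The start regions of both receptor genes are shown because the receptors share a chromosome and an endothelial pattern but differed in the size of their fall. Of the 5 members, only these 2 had a promoter sequence in the RefSeq table used (assembly GRCm38.p6), which gives 250 bases before to 50 bases after the start that RefSeq annotates. For Tek that start is the first base of the gene as given above, whereas for Tie1 it is base 118489849, which lies 212 bases inside the gene span given above, so most of the Tie1 window falls within that span. Capitals mark matches to the short ETS core AGGAAG, bound by endothelial factors such as Ets1 and Erg, read here on the opposite strand as CTTCCT. The Tek window is chr4:94739039-94739338 on the plus strand and the Tie1 window chr4:118489800-118490099 on the minus strand, both printed 5′ to 3′.
Tek: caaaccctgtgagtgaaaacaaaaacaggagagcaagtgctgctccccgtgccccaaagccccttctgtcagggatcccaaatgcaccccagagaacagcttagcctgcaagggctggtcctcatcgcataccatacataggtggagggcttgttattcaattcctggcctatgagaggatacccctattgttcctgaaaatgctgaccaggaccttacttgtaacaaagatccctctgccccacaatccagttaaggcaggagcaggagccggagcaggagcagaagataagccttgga
Tie1: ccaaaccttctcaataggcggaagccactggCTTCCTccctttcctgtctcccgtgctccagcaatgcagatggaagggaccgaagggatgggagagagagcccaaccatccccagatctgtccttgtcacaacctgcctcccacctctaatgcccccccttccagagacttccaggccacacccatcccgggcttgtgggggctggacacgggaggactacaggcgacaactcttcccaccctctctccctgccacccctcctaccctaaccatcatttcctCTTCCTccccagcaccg

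The Tie1 window held 2 ETS core matches, at -219 and 34 from the RefSeq start, and the Tek window held none. In all, 35.4% of the 32851 promoter windows of the same length hold this motif on either strand. Neither window held the longer ETS motif CCGGAAGT (3.89% of windows) or the FOXO motif GTAAACA (3.65%). The KLF motif CACCC occurred 3 times for Tie1 and 1 time for Tek (57.5% of windows), and the GATA motif AGATAA occurred 1 time, in the Tek window at 37 from its RefSeq start (11.2%). These are letter matches in short windows, searched on both strands, and no binding was measured.

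Within each mouse, the balance of the ligands turned over in lung. The ratio of Angpt2 to Angpt1, per kilobase, was 0.417, 0.526 and 0.868 in WT-RA lungs and 3.62, 5.41 and 5.77 in WT-O2 lungs. In KO mice it was 0.536, 0.483 and 0.415 in room air and 4.66, 4.77 and 3.12 in hyperoxia. Angpt1 therefore exceeded Angpt2 in all 6 room-air lungs and Angpt2 exceeded Angpt1 in all 6 exposed lungs. The mean change of the log2 ratio was 3.07 in WT and 3.11 in KO.

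The balance of the receptors moved too. Tie1 over Tek per kilobase ran from 0.971 to 1.43 in WT-RA, from 3.18 to 3.44 in WT-O2, from 1.35 to 1.60 in KO-RA and from 3.59 to 3.86 in KO-O2. The mean log2 change was 1.51 in WT and 1.35 in KO, and exposed mice did not overlap room-air mice. Among exposed lungs the 3 KO mice were above the 3 WT mice, by 0.17 on the log2 scale, while the genotypes overlapped in room air. Ptprb over Tek was higher by 0.53 in WT and 0.47 in KO on the log2 scale, again without overlap. No test was run on these ratios.

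**Figure D2:**
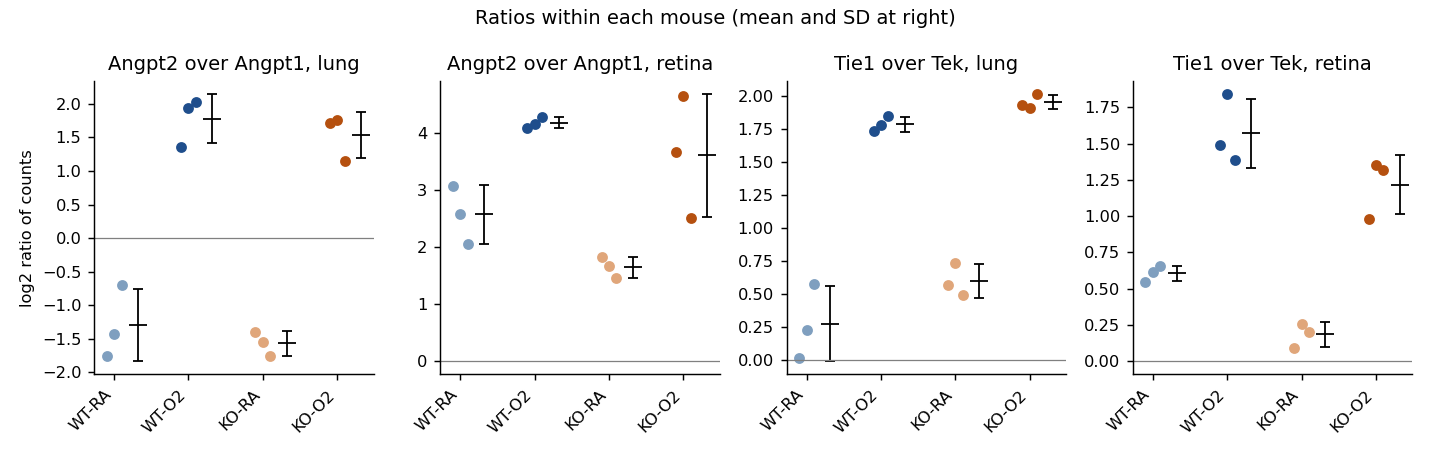
Log2 ratio of counts within each mouse, Angpt2 over Angpt1 and Tie1 over Tek, in lung and retina, 1 point per mouse with the group mean and SD beside it. In each panel the exposed mice lie above the room-air mice of the same genotype, with mean shifts of 3.07 (WT) and 3.11 (KO) for the ligands in lung.

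The members were then set beside other endothelial genes. Here and below, a list gene is counted as having risen or fallen only with an adjusted p under 0.1. Of the 15 genes of the endothelium list, 4 rose and 7 fell in WT lungs, with a median log2 change of -0.22. Those that fell ranged from the transcription factor genes Sox17 (-1.63), Sox18 (-1.29) and Erg (-1.06) and the adrenomedullin co-receptor gene Ramp2 (-1.55) to the milder Esam, Cldn5 and Pecam1, and those that rose were S1pr1 (0.57), Eng (0.37), Robo4 (0.35) and Emcn (0.25). The mean log2 level of the list was lower after hyperoxia by 0.38 in WT lungs and by 0.32 in KO lungs, and on this scale the mice did not overlap in either genotype. Its summed level was 5269.55 to 5752.27 CPM in WT-O2 against 6148.52 to 6710.17 CPM in WT-RA, while in KO the sums overlapped (4758.62 to 5916.64 CPM in KO-O2 and 5814.79 to 6324.75 CPM in KO-RA). Relative to that mean, the log2 difference with hyperoxia was -2.07 for Tek, -1.54 for Ptprb, -0.57 for Tie1 and 2.13 for Angpt2 in WT. In KO lungs the values were -1.82 for Tek, -1.36 for Ptprb, -0.48 for Tie1 and 2.19 for Angpt2. Of the 15 endothelium genes, 0 had a lower log2 change than Tek in either genotype, 0 in WT and 1 in KO had a lower one than Ptprb, 4 had a lower one than Tie1 in both, and all 15 had a lower one than Angpt2. The pan-endothelial Pecam1, an adhesion molecule, fell in WT (log2 -0.36, adjusted p = 0.00653), while Cdh5, the cadherin of endothelial junctions, had -0.22 (adjusted p = 0.14) and Kdr, the main VEGF receptor, 0.17 (adjusted p = 0.249).

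**Figure D3:**
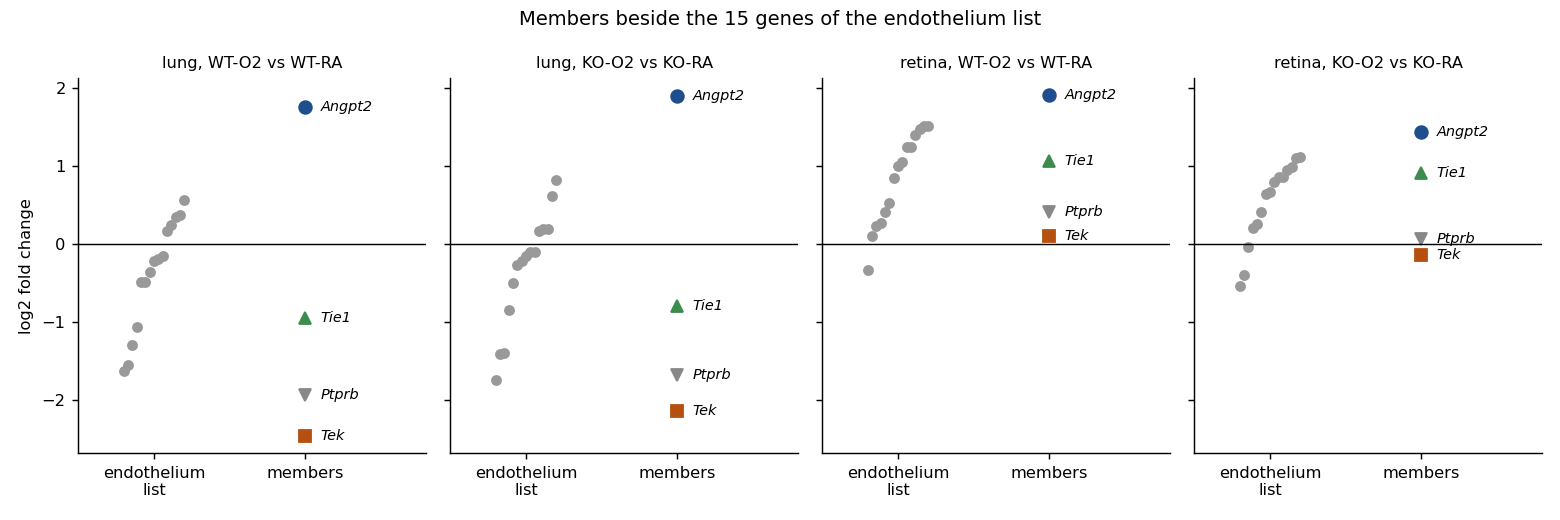
Log2 fold change with hyperoxia of the 15 endothelium genes (left points) and of 4 members (labelled points, without Angpt1), by tissue and genotype. In lung Tek lies below all 15 endothelium genes and Angpt2 above all 15, and in retina Angpt2 again lies above all 15.

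Capillary subtypes were covered by shorter lists. Of 6 markers of lung general capillary cells, 2 rose (Cd93 and Lpl) and 4 fell in WT, with a median log2 change of -1.92 against -0.01 for all tested genes. Among them Gpihbp1, which carries lipoprotein lipase, had -2.77 (adjusted p = 1.96e-05), the apelin receptor Aplnr -3.38 (adjusted p = 4.61e-07) and Plvap, a diaphragm protein, -1.07 (adjusted p = 2.06e-05). The receptor tyrosine kinase gene Kit fell as well (-3.42, adjusted p = 4.53e-11). Gpihbp1, Aplnr and Kit, which are not in the endothelium list, thus fell further than Tek (-2.47). Of 6 markers of aerocytes, the gas-exchange capillary cells, 1 rose and 5 fell (median -0.60). The one that rose was Apln, the ligand of Aplnr (2.38, adjusted p = 1.06e-07), and the endothelin receptor gene Ednrb fell the most (-2.00). The rise of Apln was larger than that of Angpt2 (1.77). Of 6 lymphatic endothelium markers, 1 rose (Lyve1, 1.52, adjusted p = 0.000769) and 1 fell (Ccl21a, -0.40, adjusted p = 0.0175) in WT, with a median of 0.07, and their summed level was 429.043 to 608.93 CPM in WT-RA and 787.716 to 822.761 CPM in WT-O2. In KO lungs it was 549.375 to 597.143 CPM in room air and 703.28 to 858.056 CPM in hyperoxia, again without overlap. The WT rise of this sum lay in Lyve1, whose mean went from 174 to 501 CPM. The other markers of the list had log2 changes between -0.40 and 0.18 in WT. The summed general capillary level was 1865.17 to 2157.83 CPM in WT-RA and 1569.13 to 1669.5 CPM in WT-O2. Outside the endothelium, lung epithelium genes summed to 30968.5 to 35313.3 CPM in WT-RA and 22953.8 to 26382.9 CPM in WT-O2. In KO-RA and KO-O2 they summed to 30131.6 to 35417.9 and 20428.1 to 24080 CPM. Macrophage genes summed to 2215.66 to 3185.2 CPM in WT-RA and 1888.81 to 1998.47 CPM in WT-O2, although 4 rose and 2 fell. In KO-RA and KO-O2 they summed to 2361.54 to 2510.12 and 1628.04 to 1840.62 CPM, with 5 rises and 2 falls. The part of any of these cells in the changes of Tek, Ptprb and Angpt2 was not tested.

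For Angpt1, mural and mesenchymal genes are the nearer reference. Of 10 pericyte and smooth muscle genes in WT lung, 4 rose and 3 fell (median 0.21): Pdgfrb, the pericyte PDGF receptor, fell (log2 -0.75, adjusted p = 0.000177), while Rgs5 (0.42, adjusted p = 0.0375) and the proteoglycan gene Cspg4 (1.12, adjusted p = 3.4e-07) rose. Relative to the mean of that list, the log2 difference of Angpt1 with hyperoxia was -1.49 in WT and -1.34 in KO, without overlap. Of 8 lung mesenchyme genes, 2 rose (Plin2 and Col1a1) and 4 fell (Pdgfra, Tcf21, Itga8 and Npnt) in WT (median -0.37). Platelets also carry Angpt1, and of 6 platelet genes 1 rose (Pf4, 0.75) and 1 fell (Ppbp, -0.90), with a median of -0.27. Genes named here beyond the fixed rule were chosen after their values were seen.

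The rest of the pathway in lung was followed with 33 further genes in 4 groups. Of 3 other ligands and ligand partners, Svep1, a large matrix protein that binds angiopoietins, rose in WT from 56.6 to 164.6 CPM (log2 1.54, SE 0.112, adjusted p = 1.1e-07), whereas Angpt4, a further angiopoietin, stayed near the detection limit at 0.825 and 0.669 CPM. Of 13 adaptors and kinases downstream of Tek, 5 rose and 5 fell in WT, none by 2-fold or more (median -0.12). The adaptor Nck1 fell (log2 -0.76, adjusted p = 4.89e-05), as did Pik3ca, the catalytic subunit of PI3-kinase (log2 -0.50, adjusted p = 0.00146). Of 7 transcription factors that act on or below these genes, 1 rose and 6 fell, with a median of -1.11. Those that fell besides Ets1 were Gata2 (-1.40), the hypoxia factor Epas1 (-1.24), the flow-responsive Klf2 (-1.20), Foxo1 (-0.68), which drives Angpt2 when Tek is silent, and the ETS factor Elf2 (-0.49). Ets1 fell from 314 to 145 CPM (log2 -1.11, SE 0.0902, adjusted p = 3.33e-07). Hif1a, the oxygen-regulated factor, was the single one that rose, from 81.9 to 178 CPM (log2 1.12, adjusted p = 3.1e-07). Of 10 vessel partner genes, a mixed group of Cdh5, 4 integrin subunits, the proteases Adam17 and Mmp14, the secreted Vegfa, its receptor Kdr and the intracellular enzyme Nos3, 4 rose and 0 fell, among them the integrin subunits Itgav (40.8 to 83.3 CPM, log2 1.03, adjusted p = 1.21e-05) and Itgb3 (33.1 to 55.3 CPM, log2 0.74, adjusted p = 2.98e-05), which can bind angiopoietins. The others were Itgb1 (0.23) and Nos3 (0.41).

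In KO lungs the same lists gave 1 rise (Svep1, log2 1.55, adjusted p = 1.57e-07) and 1 fall (Pear1, -0.21, adjusted p = 0.0918) among the 3 ligands and partners, 4 and 4 among the 13 adaptors, 1 and 5 among the 7 transcription factors (median -0.63) and 4 and 2 among the 10 vessel partner genes. The endothelium list had 2 rises and 6 falls, the general capillary list 2 and 4 and the pericyte list 4 and 5.

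Between genotypes, none of the 5 members differed in hyperoxic lung by the adjusted p. The groups overlapped for every member. Angpt2 was lower in KO-O2 (113 ± 16.2 CPM) than in WT-O2 (136 ± 17.6 CPM) by 0.27 on the log2 scale (SE 0.110, unadjusted p = 0.0249, adjusted p = 0.752). The difference was -0.05 for Tek (SE 0.116, adjusted p = 0.97), -0.05 for Angpt1 (adjusted p = 0.981), 0.11 for Tie1 (adjusted p = 0.91) and 0.10 for Ptprb (adjusted p = 0.969). Across all genes, 0.0238% were called in this contrast, 12.2% did not overlap and an unadjusted p under 0.05 was reached by 6.21%. None of the 33 pathway genes passed either. The difference was -0.37 for Angpt4 and -0.15 for Svep1 among ligands and partners, 0.14 for Grb2 and -0.18 for Tnip2 among adaptors, 0.19 for Epas1 and -0.15 for Gata2 among transcription factors, and 0.22 for Kdr among vessel partner genes. Nos3, the endothelial nitric oxide synthase, came nearest, with a mean of 64.1 CPM in WT-O2 and of 44.0 CPM in KO-O2 (log2 -0.54, SE 0.131, adjusted p = 0.359), with no overlap between the groups. It rose with hyperoxia in WT lungs (log2 0.41, adjusted p = 0.0213) and fell in KO lungs (log2 -0.50, adjusted p = 0.00755). The test of that difference did not pass (-0.91, SE 0.185, unadjusted p = 0.000216, adjusted p = 0.282).

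In room air, Angpt2 and Tek were lower in each KO lung than in any WT lung, which held in this direction for 7.9% of all tested genes (15.2% in either direction). The difference was -0.41 for Angpt2 (SE 0.114, unadjusted p = 0.00265, adjusted p = 0.174) and -0.38 for Tek (SE 0.113, unadjusted p = 0.00479, adjusted p = 0.217). Neither passed in edgeR, whereas DESeq2 gave an adjusted p of 0.0584 for Angpt2 and 0.0808 for Tek. Angpt1 (-0.17), Ptprb (-0.16) and Tie1 (-0.04) overlapped, and 0.137% of all genes were called. The test of whether the hyperoxia effect differed between genotypes passed for none of the 5 (0.00595% of all genes passed): the largest estimate was 0.32 for Tek (SE 0.162, unadjusted p = 0.0657, adjusted p = 0.771), which shares the room-air groups of the comparison before it. The others were 0.26 for Ptprb, 0.15 for Tie1, 0.14 for Angpt2 and 0.11 for Angpt1.

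**Figure D4:**
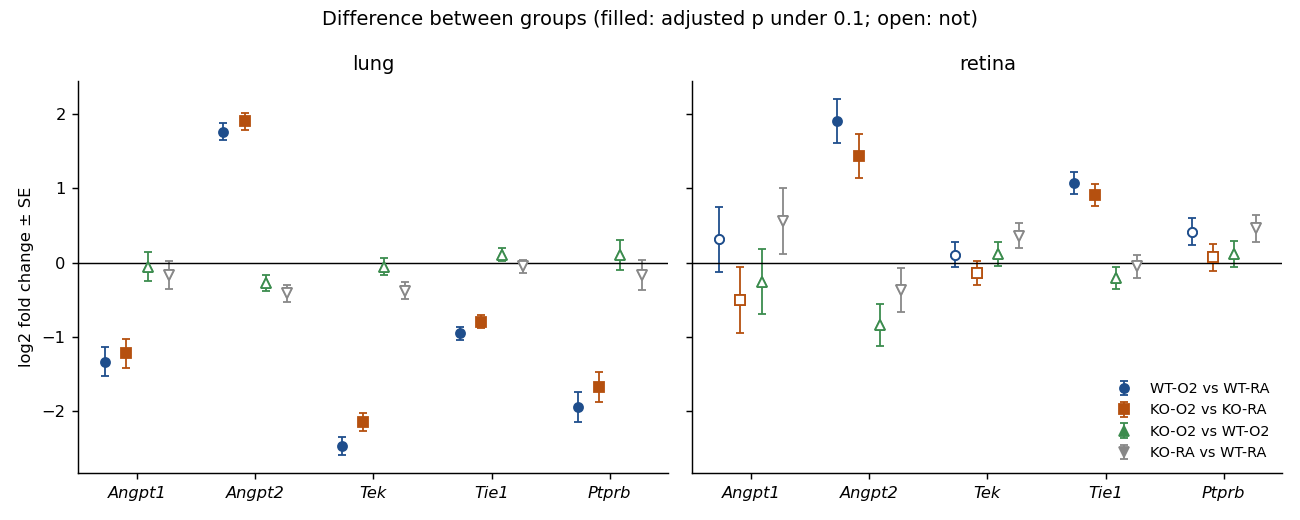
Log2 difference between groups with its SE for each member, in lung and retina, for hyperoxia in WT, hyperoxia in KO and genotype within each exposure; filled points passed an adjusted p under 0.1 and open points did not. All 5 members are filled for both hyperoxia comparisons in lung, only Angpt2 and Tie1 in retina, and no genotype comparison is filled.

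In retina, Angpt2 and Tie1 were higher after hyperoxia and recovery in both genotypes, while Tek, Ptprb and Angpt1 did not pass the test in either. Of the 5 members, 2 were called in WT, where 2.04% of all tested genes were, and 1 was called in KO, where 2.19% were. By the adjusted p alone 2 of 5 passed in each genotype, against 5.16% of all genes in WT and 7.82% in KO. Angpt2 is a ligand and Tie1 a receptor, and in whole retina the cells that carried their RNA were not determined. Markers of several cell types moved with exposure too. Pigment epithelium and choroid genes summed to 165.291 to 501.714 CPM in WT-RA against 86.791 to 201.636 CPM in WT-O2, which overlapped, and to 236.041 to 1906.09 CPM in KO-RA against 76.6065 to 206.985 CPM in KO-O2, which did not, although none of the 6 passed the test in either genotype. Horizontal cell genes summed to 86.2175 to 127.208 CPM in WT-RA and 55.0099 to 64.8392 CPM in WT-O2, and macrophage genes to 18.8812 to 32.0799 CPM and 38.865 to 58.4733 CPM. In KO the horizontal cell sums overlapped (76.0441 to 109.136 CPM in KO-RA, 65.9069 to 83.615 CPM in KO-O2). The macrophage sums did not (15.1074 to 31.7437 CPM in KO-RA, 33.446 to 53.5664 CPM in KO-O2). Photoreceptor sums overlapped in WT (60979.6 to 69081.5 CPM in WT-RA, 55341.1 to 62547.8 CPM in WT-O2). In KO they did not (54353.4 to 61543.5 CPM in KO-RA, 45201.8 to 52638.7 CPM in KO-O2), although 0 of 7 genes passed the test. Mueller glia and astrocyte genes summed to 3011.98 to 4062.9 CPM in WT-RA and 2465.28 to 2816.1 CPM in WT-O2. In KO their sums overlapped (3045.01 to 3855.72 CPM in KO-RA, 3006.49 to 3265.16 CPM in KO-O2). Of these 6 genes, 1 rose and 2 fell in each genotype, with highest log2 changes of 2.66 in WT and 2.08 in KO. The part of these cells in the changes of the members was not tested. Retina levels are compared within a gene only, because the deposited retina values may already be scaled.

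**Figure D5:**
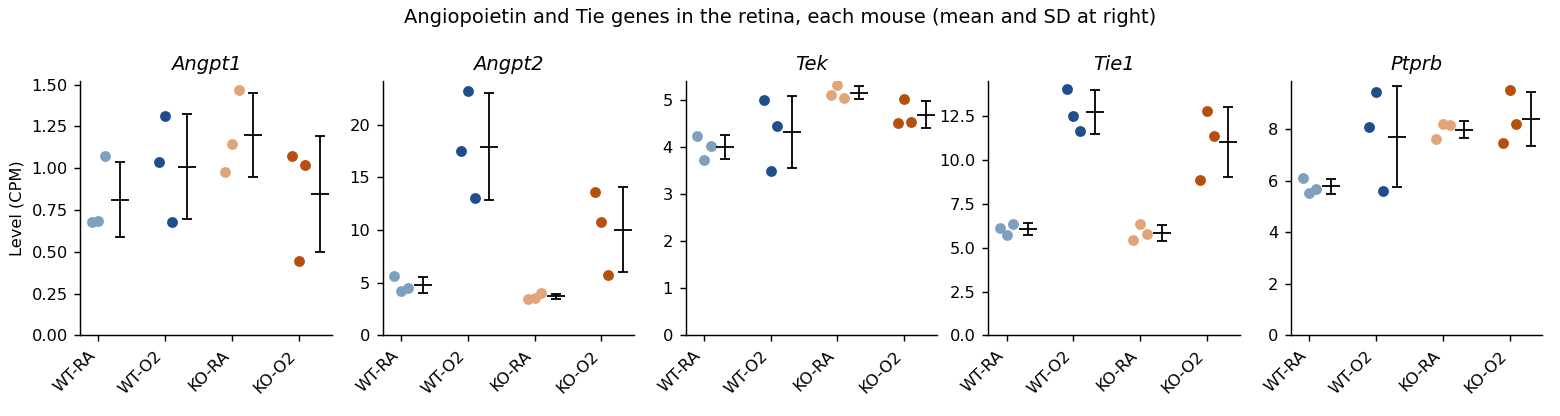
Level of each of the 5 genes in the 12 retinas, in CPM on a linear axis that starts at 0, 1 point per mouse with the group mean and SD beside it. Exposed retinas lie above room-air retinas for Angpt2 (5.73 to 23.1 against 3.48 to 5.60 CPM) and Tie1 (8.88 to 14.1 against 5.44 to 6.36 CPM), while Angpt1 is near 1 CPM throughout.

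Angpt2 stood at 5.60, 4.19 and 4.50 CPM in WT-RA retinas and at 17.5, 23.1 and 13.1 CPM in WT-O2 retinas. The groups did not overlap, as for 24% of all tested genes, and the rise was 3.76-fold (log2 1.91, SE 0.296, adjusted p = 0.00779, rank 100). In KO retinas it went from 3.48, 3.60 and 4.01 CPM to 13.6, 10.8 and 5.73 CPM, a 2.72-fold rise (log2 1.44, SE 0.295, adjusted p = 0.0242). The exposed KO retinas spread widely, with a coefficient of variation of 39.7%, and the lowest of them was close to the highest WT-RA retina.

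Both Angpt2 calls were lost when retinas with lens RNA were left out, an alternative chosen after seeing the data. Without the 3 lens-rich retinas, which leaves 1 WT-RA mouse, taken to vary like the other groups, and 2 KO-RA mice, the log2 change was 1.67 in WT (adjusted p = 0.135) and 1.51 in KO (adjusted p = 0.1, just above the threshold). With a term for sex it was 1.95 in WT (adjusted p = 0.0403) and 1.48 in KO (adjusted p = 0.0727). Without the retina labelled WT-RA replicate 2, whose Gsdmd went against its label, it was 1.82 in WT (adjusted p = 0.047).

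Angpt1 was close to the detection limit in retina. It stood at 0.680, 0.686 and 1.07 CPM in WT-RA and at 1.04, 1.31 and 0.681 CPM in WT-O2, and at 0.980, 1.14 and 1.47 CPM in KO-RA against 1.08, 0.444 and 1.02 CPM in KO-O2. These levels rest on 12.6 to 41.6 counts per library. The changes of 0.31 in WT (SE 0.442, adjusted p = 0.781) and -0.50 in KO (SE 0.440, adjusted p = 0.578) were about as large as their errors, which come from the spread between the mice, so changes of this size could not be told from that spread.

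In retina Tie1 stood at 6.16, 5.72 and 6.34 CPM in WT-RA and at 14.1, 12.5 and 11.6 CPM in WT-O2, a 2.10-fold rise (log2 1.07, SE 0.150, adjusted p = 0.00475, rank 68). In KO retinas it went from 5.44, 6.36 and 5.80 CPM to 8.88, 12.8 and 11.4 CPM, a 1.88-fold rise (log2 0.91, SE 0.150, adjusted p = 0.0106) that stayed under the 2-fold threshold. Neither genotype's groups overlapped, which in KO held for 26.2% of all tested genes. The Tie1 change sat close to the 2-fold threshold: it was 0.99 in WT without WT-O2 replicate 1 (adjusted p = 0.0236) and 1.04 in KO without KO-O2 replicate 1 (adjusted p = 0.00696). Without the lens-rich retinas the rise was 1.04 in WT (adjusted p = 0.0849) and 0.90 in KO (adjusted p = 0.0693), and with a term for sex 1.25 (adjusted p = 0.00727) and 1.09 (adjusted p = 0.0144).

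Tek stood at 4.24, 3.74 and 4.03 CPM in WT-RA retinas and at 5.00, 3.49 and 4.46 CPM in WT-O2 retinas, which overlapped (log2 0.11, SE 0.165, adjusted p = 0.798). In KO it was 5.10, 5.31 and 5.05 CPM in room air and 4.51, 5.03 and 4.55 CPM after hyperoxia (log2 -0.13, SE 0.163, adjusted p = 0.705). Each exposed KO retina was just below each room-air one, but the difference was smaller than its SE. Ptprb stood at 6.12, 5.53 and 5.70 CPM in WT-RA and at 8.08, 9.45 and 5.62 CPM in WT-O2 (log2 0.42, SE 0.181, unadjusted p = 0.0413, adjusted p = 0.266). In KO it was 7.60, 8.21 and 8.14 CPM against 7.46, 9.50 and 8.21 CPM, and the groups overlapped (log2 0.07, adjusted p = 0.872).

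Within each mouse, the ratio of Tie1 to Tek shifted in retina as well. Its log2 change was 0.97 in WT and 1.03 in KO, without overlap in either. The ratio of Angpt2 to Angpt1 changed by 1.61 in WT and 1.96 in KO, also without overlap, although its lower term is made of few counts. By genotype, Tie1 over Tek was lower in each KO retina than in any WT retina of the same exposure. The log2 difference was -0.35 after hyperoxia and -0.42 in room air, the opposite direction to exposed lung. Angpt2 over Angpt1 was lower in KO by 0.92 in room air, without overlap, and overlapped after hyperoxia. No test was run on these ratios. Ratio levels are not compared with those of the lung.

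Retinal endothelial genes as a group were also higher after hyperoxia. Of the 15 genes of the endothelium list, 10 rose and 1 fell in WT (median 1.00) and 9 rose and 1 fell in KO (median 0.67), against medians near 0 for all tested genes. The one that fell was S1pr1, a sphingolipid receptor, at -0.33 in WT and -0.53 in KO. Their summed level was 433.887 to 498.781 CPM in WT-O2 against 252.005 to 297.459 CPM in WT-RA, and 366.38 to 413.149 CPM in KO-O2 against 263.619 to 284.708 CPM in KO-RA. In WT, Pecam1 had 1.24 (adjusted p = 0.00184), Cdh5 1.52 (7.14 to 20.4 CPM, adjusted p = 0.00294) and Kdr 0.52 (adjusted p = 0.0242).

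Against the mean of that list, which was higher by 0.81 in WT and 0.51 in KO, the members split. The log2 difference of Angpt2 with hyperoxia exceeded that of the list by 0.97 in WT and by 0.75 in KO, where mice overlapped. That of Tie1 exceeded it by 0.20 in WT and 0.34 in KO. Relative to the list, Tek had -0.72 in WT and -0.63 in KO, and Ptprb -0.45 and -0.44, without overlap. On the same scale both were higher in KO than in WT, without overlap and without a test. The difference was 0.44 for Tek and 0.46 for Ptprb after hyperoxia, and 0.35 and 0.45 in room air. Of the 15 endothelium genes, 2 had a lower log2 change than Tek in both genotypes, 5 in WT and 3 in KO had a lower one than Ptprb, 9 in WT and 11 in KO had a lower one than Tie1, and all 15 had a lower one than Angpt2. Capillary markers outside that list reached higher changes than Angpt2. The highest of the 6 general capillary markers was 3.71 in WT and 5.08 in KO (medians 1.14 and 1.02). The highest of the 6 aerocyte markers was 3.44 in WT and 2.97 in KO, with medians of -0.02 and 0.06.

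Mural genes were higher too. Of 10 pericyte and smooth muscle genes, 7 rose and 0 fell in WT (median 0.97) and 5 rose and 0 fell in KO (median 0.64). In WT, Rgs5 had 1.51 (adjusted p = 0.00197), Cspg4 0.96 (adjusted p = 0.0561) and Pdgfrb 0.61 (adjusted p = 0.0682). Relative to the mean of this list, the log2 difference of Angpt1 with hyperoxia was -0.66 in WT and -0.88 in KO.

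Of the other pathway genes in WT retina, 1 of 3 ligands and ligand partners rose, 1 of 13 adaptors, 1 of 7 transcription factors and 7 of 10 vessel partner genes (median 0.85). None of these 4 groups had a fall past the adjusted p, although some of their genes had lower values. Vegfa, the hypoxia-induced growth factor of endothelium, rose from 245 to 585 CPM (log2 1.25, SE 0.127, adjusted p = 0.00118). Ets1 rose from 4.90 to 12.5 CPM (log2 1.35, SE 0.265, adjusted p = 0.0245). Pear1, a receptor of platelets and endothelium listed with the ligand partners, had 3.62 and 8.15 CPM (log2 1.17, adjusted p = 0.0644), and Tnip2, an NF-kB inhibitor that binds Tek, rose to 33.0 CPM (log2 0.87, adjusted p = 0.0376). Svep1 (-0.65, adjusted p = 0.682), Pik3ca (0.22, adjusted p = 0.276) and Klf2 (-0.46, adjusted p = 0.361) did not pass. Pear1, Tnip2 and Ets1 no longer passed the adjusted p without WT-RA replicate 1 (log2 1.01, 0.73 and 1.23). Pear1 also missed it without WT-RA replicate 2, without any 1 WT-O2 retina and without the lens-rich retinas (1.56, adjusted p = 0.106). Tnip2 also missed it without WT-RA replicate 2, without WT-O2 replicate 2 and with a term for sex (0.80, adjusted p = 0.188). In KO retina 4 of the 10 vessel partner genes rose (median 0.57; Cdh5 0.95, Itga5 1.41, Mmp14 0.74 and Vegfa 1.00) and none of the other 23 pathway genes passed.

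The genotype comparison in retina, as in lung, passed for none of the 5 members. After hyperoxia Angpt2 was 17.9 ± 5.05 CPM in WT-O2 retinas against 10.0 ± 3.99 CPM in KO-O2 retinas, a log2 difference of -0.83 (SE 0.285, unadjusted p = 0.0133, adjusted p = 0.243), and 1 KO retina lay within the WT range. Tie1 was 12.8 ± 1.24 CPM in WT-O2 against 11.0 ± 1.99 CPM in KO-O2 (log2 -0.21, adjusted p = 0.621), and Tek, Ptprb and Angpt1 differed by 0.12, 0.12 and -0.26. Across all genes 0.292% were called, 19.9% did not overlap and an unadjusted p under 0.05 was reached by 12.6%. The mean of the endothelium list was lower in KO-O2 than in WT-O2 by 0.32, with each KO mouse below each WT mouse, and 1 of its 15 genes, the transcription factor gene Sox18, was lower past the threshold (log2 -0.87, adjusted p = 0.0972). Vegfa had 585 CPM in WT-O2 against 442 CPM in KO-O2 without overlap (log2 -0.41, SE 0.126, adjusted p = 0.197). The other pathway genes had -0.49 for Pear1 and 0.44 for Angpt4, -0.45 for the adaptor gene Shc1 and -0.38 for Tnip2, -0.60 for Ets1 and 0.20 for Hif1a, and -0.35 for Nos3, and none passed.

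In room air, Tek (log2 0.37, unadjusted p = 0.0474, adjusted p = 0.393) and Ptprb (log2 0.47, unadjusted p = 0.0254, adjusted p = 0.333) were higher in each KO retina than in any WT retina, which held in this direction for 10.7% of all tested genes (17.7% in either direction). Angpt2 was lower in each KO retina (log2 -0.37, adjusted p = 0.644), as were 7.09% of genes. Angpt1 (0.56, SE 0.443, adjusted p = 0.635) and Tie1 (-0.05, adjusted p = 0.929) overlapped. None was called, against 0.00522% of all genes, and lens RNA was present in retinas of both genotypes. The test of a different hyperoxia effect between genotypes passed for none of the 5 (0.00522% of all genes passed), with estimates of -0.81 for Angpt1 (SE 0.624, adjusted p = 0.668), -0.47 for Angpt2 (SE 0.410, adjusted p = 0.71), -0.34 for Ptprb, -0.24 for Tek and -0.16 for Tie1.

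Finally, the genes whose pattern over the 12 samples of a tissue was most like each member were listed by Pearson's r of log2(CPM + 1), as a description. The points fall into exposure groups, so r mostly follows the difference between them. In lung, out of 14659 genes compared, Tek was followed most closely by Bmp6 (r = 0.996), Kit (0.993) and Mis18a (0.993), Tie1 by Pik3r6 (0.994), Kcnk3 (0.992) and Retreg3 (0.990), and Ptprb by Efnb2 (0.994), Selenop (0.994) and Gria1 (0.993). Angpt1 was followed by Ogn (0.994), Samd12 (0.989) and Mettl7a1 (0.985), and Angpt2 by Ctps (0.996), Sars (0.992) and Hist1h1c (0.991). In retina, out of 15459 genes, Angpt2 was followed by Esm1 (0.979), Tpm4 (0.967) and Robo4 (0.961), and Tie1 by Tgfbr2 (0.969), Elk3 (0.968) and Erg (0.968). Likeness was lower for the members that did not pass the test there: Dennd6a led for Angpt1 (0.920), Pcdhb5 for Tek (0.845) and Ankrd42 for Ptprb (0.897).

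Among the members themselves, r between Tek and Tie1 was 0.975 in lung and -0.039 in retina, and between Angpt2 and Tie1 it was 0.859 in retina. In lung Angpt2 ran against the other 4, with r from -0.949 to -0.925.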

How the data were processed

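Whole-tissue RNA was sequenced from 12 lungs and 12 retinas. The authors pseudoaligned reads with kallisto and summed transcripts to genes with tximport; the submitters' processing notes name mm10 and the study's methods name GRCm39 with an Ensembl annotation. Tool versions and tximport settings are not given in the sources used here. The authors deposited 1 table of expected counts per tissue. Of the nonzero values, 55.8% in lung and 2.2% in retina were whole within 0.01, so retina values may already be scaled.

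Expected counts were rounded to whole numbers, filtered with edgeR's filterByExpr, scaled by TMM (factors 0.954 to 1.02 in lung, 0.863 to 1.1 in retina) and tested by edgeR's quasi-likelihood test (edgeR 4.0.16, limma 3.58.1, R 4.3.3), with all 4 groups of a tissue in one fit and no covariates. Tissues were fitted separately. Calls needed an adjusted p below 0.1 together with an unadjusted p below 0.05 and a 2-fold change; the interaction needed the adjusted p alone. CPM values use TMM library sizes. Per-kilobase values use the union of exons in the GRCm38 annotation, not the transcript lengths of the pseudoalignment. Symbols were found for 35816 lung and 35968 retina rows.

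All 5 members were named in every comparison. By a fixed rule, the 2 genes with the smallest p were named from each pathway list, in hyperoxia in WT and in the genotype comparison in hyperoxia, and from cell type lists at most the first 3 as listed. Further genes of both kinds of list were named after their values were seen. For likeness, 3 genes were named per member, out of those averaging 1 CPM or more. The members and lists were chosen with earlier results of these data known. The fit was tested on simulated data. Alternatives were DESeq2 1.42.0, limma voom, other filters and scalings, a term for sex, other fold thresholds and leaving out each library.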

Additional observations from a re-analysis of the deposited data

Results flagged for a closer look

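Members whose difference went one way in every lung and the opposite way in every retina are given here; the difference between tissues was not tested, and the tissues also differed in age, oxygen level, timing and recovery. Tie1 with hyperoxia in WT had a log2 change of -0.95 in lung and 1.07 in retina. Tie1 with hyperoxia in KO had -0.80 in lung and 0.91 in retina. Tek between genotypes in room air had -0.38 in lung and 0.37 in retina, and neither value passed the adjusted p in edgeR.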

How the results depend on the processing

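In lung, 4 of 5 members were called for hyperoxia in WT and in KO whichever library was left out, and 4 or 5 under the other settings; no setting called a member between genotypes or for the interaction in either tissue. No paired analysis was possible because the labels give no replicate numbers shared by the groups. In KO retina the count of members called, 1 as reported, was 2 with a term for sex, 2 with no fold threshold, 2 at a fold change of at least 1.5, 0 with the 3 lens-rich retinas left out (an alternative chosen after seeing the data) and 1 to 2 with any 1 library left out. In WT retina the count, 2 as reported, was 1 without the lens-rich retinas and 1 to 2 with 1 library left out, the lower count coming without WT-O2 replicate 1, where Tie1 was just under 2-fold; the higher KO count came without KO-O2 replicate 1. Leaving out lens-rich retinas also leaves fewer samples; beyond that the cause was not tested. Every difference that changed sign had not passed the adjusted p as reported. With a term for sex in retina, Angpt1 with hyperoxia in WT was -0.015 and Tek with hyperoxia in KO 0.025; without the lens-rich retinas Svep1 with hyperoxia in WT was 0.30, against -0.65 as reported. With 1 lung left out, log2 values ran from -0.17 to 0.11 for Angpt1 and from -0.019 to 0.31 for Ptprb between genotypes in hyperoxia, from -0.36 to 0.032 for Angpt1, -0.35 to 0.061 for Ptprb and -0.072 to 0.0024 for Tie1 between genotypes in room air, and from -0.092 to 0.30 for the Angpt1 interaction. With 1 retina left out they ran from -0.026 to 0.15 for Ptprb with hyperoxia in KO, from -0.0099 to 0.24 for Tek with hyperoxia in WT, from -0.11 to 0.0016 for Tie1 between genotypes in room air, and, between genotypes in hyperoxia, from -0.49 to 0.052 for Angpt1, -0.010 to 0.24 for Tek, -0.081 to 0.29 for Ptprb and -0.020 to 0.91 for Angpt4. In lung room air, DESeq2 moved Angpt2 (-0.41) and Tek (-0.38) past the adjusted p, and Tek also passed without WT-RA replicate 3 (-0.48). DESeq2 also passed Nos3 in hyperoxic lung (-0.55) and Vegfa in hyperoxic retina (-0.42) between genotypes. Angpt1 in retina rests on 12.6 to 41.6 counts per library, which limits the precision of its values.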
